A study of Macaca mulatta with 23 samples.

Results

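The 953 densest stretches of measured CpG positions on the autosomes were examined in amygdala tissue, from its central nucleus, in 23 young rhesus monkeys (Macaca mulatta). A stretch, called a run here, was formed by sorting the autosomal positions of the deposited methylation table and joining neighbours at most 200 bp apart on the same chromosome, and a run was kept when it held 50 or more positions. The 953 runs were drawn from 38064 runs of any size and held 68162 of the 444312 measured positions, or 15.3%. Another 32 runs of that size, all on the X chromosome, were left out by the rule.

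In mammalian DNA the cytosine of a CpG is usually methylated, and over evolutionary time methylated CpGs tend to be lost by deamination. Stretches that keep many CpGs, known as CpG islands, often lie at the starts of genes, and in somatic tissue they are usually free of methylation. Islands that do carry methylation in somatic tissue include imprinted regions, islands inside gene bodies and islands of genes used only in germ cells.

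Reduced representation bisulfite sequencing was used, in which DNA is cut with MspI so that CpG-rich fragments are kept, and bisulfite then turns unmethylated cytosines into uracil. There was 1 library per monkey, from the right hemisphere in 12 monkeys and from the left in 11. Each monkey had an anxious temperament score, from -1.48 to 1.43, and an age, from 1.1 to 2.13 years. No treatment or genotype is given in the labels, and the tissue is a mixture of cells, so a level between 0 and 100% cannot be told apart as a mixture of cell types, of cells or of the 2 alleles. The tissue label could not be compared with marker genes, because the table holds methylation levels alone.

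Positions carry human coordinates (build hg19), and 0 of them lay beyond a chromosome end of that build. No genome sequence of that build was used here, so runs are given by coordinates and chromosome band and no sequence is shown. A macaque base that differs from the human CpG can appear as an unmethylated position, and such sites were not identified.

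Libraries differed in completeness. Values were missing at 5.85% of the monkey-by-position entries in the dense runs, against 7.59% over the whole table. Left 3 lacked 48.2% of its values in the dense runs, left 4 lacked 19% and right 9 lacked 16.7%, while the median over the 23 libraries was 1.48%. No 2 libraries were near copies: the highest correlation between libraries, over 9240 dense-run positions of intermediate level, was 0.799. The table gives no read counts, so the depth behind each level is unknown.

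The dense runs were short and closely packed. Their median length was 427 bp, with the middle of the distribution between 308 and 582 bp, and the extremes were 104 and 1873 bp. Only 28 of the 953 reached 1000 bp. Of the positions in them, 81.6% came in pairs 1 bp apart, which are the 2 strands of the same CpG. Counted once per pair, the runs held 40335 CpGs. The run with the most positions, 222 positions over 1610 bp on chromosome 13 from 53420036 to 53421645 (13q14.3), had a level of 3.17% in the lowest monkey, 7.16% in the median monkey and 9.52% in the highest. The second, 201 positions on chromosome 8 from 145556403 to 145557619 (8q24.3), ran from 3.91% over a median of 7.87% to 11.3%. The third, 200 positions on chromosome 1 from 27022863 to 27023741 (1p36.11), ran from 0.505% over a median of 0.749% to 2.3%. These 3 runs were low in every monkey. The fourth was not: 183 positions on chromosome 22 from 51042376 to 51043406 (22q13.33) stood between 54.3% and 68.2% in all 23 monkeys, with a median of 58.4%. Its highest value was that of left 3, from 41 positions, and without left 3 and right 9 the highest was 64.8%. Of the 5 longest runs, 3 were low, averaging 4.05%, 6.76% and 12.1%, and 2 were not. The longest of all, 1873 bp on chromosome 1 from 27874821 to 27876693 (1p36.11), stood between 51.6% and 66.1%. Its lowest value was that of right 9, from 59 positions, and its highest that of left 3, from 66. Without left 3 and right 9 it ran from 56.4% to 64.7%. The next longest, 1685 bp on chromosome 16 from 3778217 to 3779901 (16p13.3), averaged 68.2%.

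Most dense runs were close to free of methylation. A run's level in each monkey was taken as the unweighted mean of its measured positions, and the mean over monkeys was below 2% in 540 of the 953 runs (56.7%) and below 5% in 635 (66.6%). The median run stood at 1.44%, and the lowest at 0.762%. At the other end, 237 runs (24.9%) had a level of 20% or more, 141 had 50% or more, 39 had more than 80%, and a single run passed 90%. When runs were built only from positions with a value in every monkey, 9 of 180 (5%) were at 20% or more. Between these ends the runs were spread thinly, with 81 between 5% and 20%, 96 between 20% and 50% and 102 between 50% and 80%. Runs below 20% are called low here, those between 20% and 80% intermediate, and those above 80% high.

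**Figure D1:**
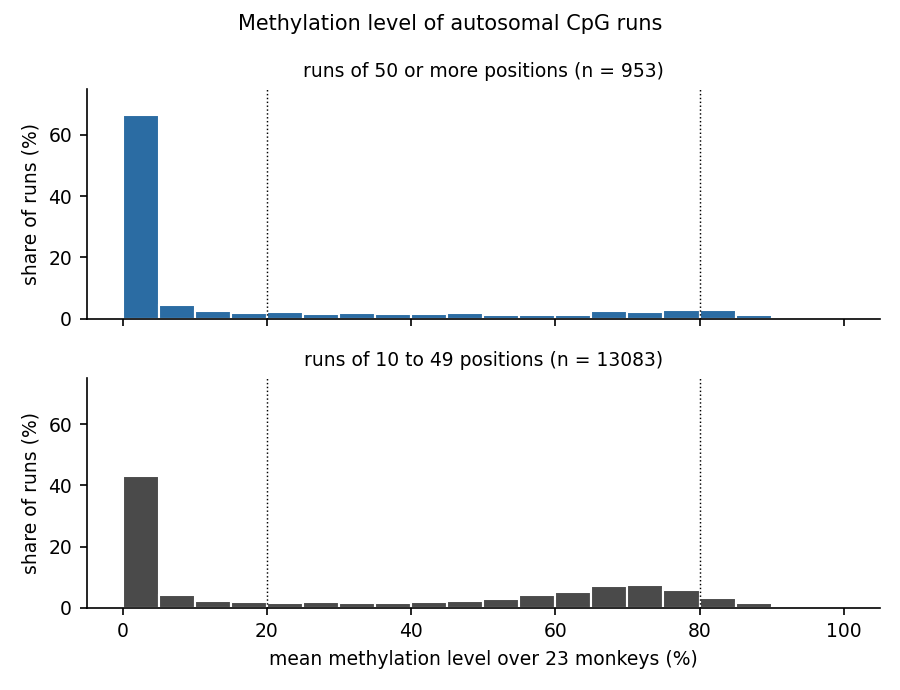
Share of runs (%) in bins of 5 points of the mean methylation level over monkeys, for the 953 dense runs above and 13083 autosomal runs of 10 to 49 positions below. Both have their tallest bar under 5%, and the sparser runs have a second, broad rise between 50% and 80% that is small in the dense runs; dotted lines mark 20% and 80%.

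Averaged over runs, the dense runs stood at 16.1% ± 0.525 and the autosomal runs of 10 to 49 positions at 31.4% ± 0.93 (SD, n = 23 monkeys). The difference was -15.3 points ± 0.726 (SD), negative in 23 of 23 monkeys (permutation of signs over monkeys, 2-sided p = 2e-05, the smallest that 100000 resamples can give). The runs of 3 to 9 positions averaged 47.9% ± 1.48 (SD, n = 23). Against them the difference was -31.9 points ± 1.47 (SD, n = 23; permutation p = 2e-05), again negative in every monkey. Both p-values concern only how alike the monkeys were, since the same runs were compared in each. A level of 20% or more was found in 24.9% of the dense runs, in 48.6% of 13083 runs of 10 to 49 positions and in 80.5% of 17475 runs of 3 to 9 positions. The share did not keep falling with size. It was 24.1% in the 3034 runs of 30 or more positions, which include the dense runs. In the 107 runs of 100 or more it was 30.8%, with a median level of 2.05%. Runs on either side of the threshold of 50 were alike in level. Runs of 50 to 54 positions had a median level of 1.44% and 24.3% of them were at 20% or more, and runs of 45 to 49 positions had a median of 1.35% and 21.2%.

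Within the dense runs, low and methylated runs overlapped in build, although intermediate runs were longer and less dense in CpGs by the median. These differences were not tested. The 716 low runs held a median of 63 positions over 394 bp, or 9.99 CpGs per 100 bp. The 198 intermediate runs held 68 positions over 524.5 bp (8.31 CpGs per 100 bp), and the 39 high runs held 64 over 437 bp (9.16 CpGs per 100 bp). The interquartile ranges of CpGs per 100 bp overlapped, at 7.76 to 12.9 in low, 6.61 to 11 in intermediate and 7.04 to 10.5 in high runs. Missing values were more frequent in the methylated runs, at 8% of entries in intermediate and 8.97% in high runs, against 5.04% in low runs.

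The methylated exceptions were unevenly spread over chromosomes. Chromosome 19 held 115 of the 953 dense runs and 63 of the 237 exceptions, so that 54.8% of its dense runs were at 20% or more, against 20.8% of the 838 on the other autosomes. Its dense runs averaged 33.6% ± 0.735 and those of the other autosomes 13.7% ± 0.54 (SD, n = 23 monkeys), and the 2 sets of monkey means did not overlap, at 32.3% to 34.9% on chromosome 19 and 12.6% to 14.8% elsewhere. Chromosome 22 followed with 15 of 34 dense runs at 20% or more and chromosome 8 with 10 of 27. Chromosome 6 had 3 of 45, chromosome 13 had 1 of 18 and chromosome 21 had 0 of 5. Among the runs of 10 to 49 positions the share at 20% or more ran over a narrower span, from 41.5% on chromosome 13 to 59.7% on chromosome 19. Exceptions also lay more often near chromosome ends: 71 of the 237 (30%) were within 5 Mb of an end of the hg19 chromosome, as were 16 of the 39 high runs (41%), against 104 of the 716 low runs (14.5%). For runs of 10 to 49 positions the corresponding shares were 18.5% at 20% or more and 13% below 20%. The shares near ends are not given without chromosome 19, which held 63 of the 237 exceptions. Nearness to an end and chromosome therefore cannot be told apart here. Ends are those of the human build, and ends of macaque chromosomes were not used. These shares describe the table, and genes behind them could not be named.

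**Figure D2:**
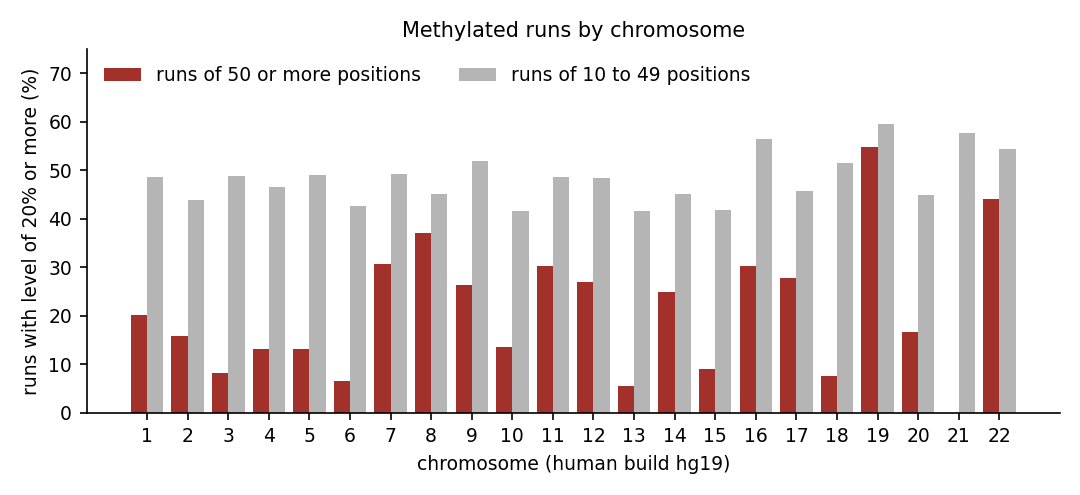
Share of runs (%) with a mean level of 20% or more on each autosome of hg19, for dense runs (red) and runs of 10 to 49 positions (grey). The dense share is 54.8% on chromosome 19 and 0% on chromosome 21, where there are 5 dense runs, while the grey bars stay between 41.5% and 59.7%.

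The 12 runs with the highest levels lay on chromosomes 2, 7, 8, 14, 19 and 22. The highest of all, 50 positions on chromosome 2 from 10560003 to 10560267 (2p25.1), had a level of 86.5% in the lowest monkey, 90.8% in the median and 92.3% in the highest. The next, 72 positions on chromosome 2 from 65540762 to 65541198 (2p14), was methylated most evenly, from 88.5% over 89.9% to 90.9%, with an SD of 0.611 points (n = 23). Further along chromosome 2 of hg19, 53 positions from 242572322 to 242572702 (2q37.3) ran from 86.9% to 90.5% in the 20 monkeys with values. None of these came near the low runs in any monkey. The largest of the 12 were 148 positions on chromosome 7 from 70254831 to 70255895 (7q11.22), at 83.6% to 90.2%, and 146 positions on chromosome 19 from 56599543 to 56600204 (19q13.43), at 84.6% to 95%. The upper end of both was left 3, which had values at 42 and 47 of their positions. Another run on chromosome 19 (19q13.42), 64 positions from 56126286 to 56126617, read 100% in left 3, from 5 positions, and 84.6% to 95% in the other monkeys. On chromosome 22, 86 positions from 39884189 to 39884736 (22q13.1) stood at 54.5% in right 9, from 33 positions, and at 83.1% or more in every other monkey. Without left 3 and right 9 the SD of that run was 1.41 points, against 6.97 with them.

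Averages hid how nearly complete methylation was inside the high runs. Of their 2821 positions, 81.9% had a mean level above 80%, 11.5% lay between 20% and 80%, and 6.59% lay below 20%. In the leading run of 2p25.1 the median position stood at 96.3%, although the run averaged 90.5%, and 4% of its 50 positions were below 20%. In the run of 2p14 the median position was at 97.5% and 5.56% of the positions were below 20%. Whether the low positions are unmethylated cytosines or bases that differ between macaque and human was not tested.

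The intermediate runs were mixtures at the level of single positions. Of their 14989 positions, 53% were themselves between 20% and 80%, 21.6% were below 20% and 25.4% above 80%. In 108 of the 198 runs at least 50% of the positions were intermediate. Few runs split into a methylated block beside an unmethylated one at a single cut. Each intermediate run was cut once, with at least 10 positions on each side. The cut maximised the difference between the 2 sides multiplied by the square root of the product of their sizes. That weight favours even cuts, so an uneven cut could show a larger plain difference. At the chosen cuts the median difference between sides was 21.8 points and 126 runs stayed under 25 points. The difference reached 50 points in 7 runs. In the clearest, on chromosome 4 from 6642650 to 6643180 (4p16.1), the first 52 positions averaged 72.1% and the last 22 averaged 3.63%, with the change between 6642913 and 6642944. On chromosome 19 from 4791831 to 4792999 (19p13.3), the first 89 positions averaged 5.99% and the last 26 averaged 71.8%. Of the 50352 positions in low runs, 1010 had a mean level of 20% or more. A level above 80% was found at 23 of them, in 11 of the 716 low runs, and 6 of the 23 lay within 46 bp in the run on chromosome 7 from 127292029 to 127292698 (7q32.1).

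Mean levels were lower at the outer edge of methylated runs. In intermediate runs the positions within 24 bp of an end averaged 43.6%, and those 25 to 49 bp from an end averaged 54.9%. Over the 23 monkeys the outer band ran from 38.7% to 44.6% and the next from 52.1% to 56.4%, so they did not overlap. In high runs the outer band averaged 78.5%, the next 86.6%, and positions 50 to 99 bp from an end 88.8%. Further in, they averaged 83.4% between 100 and 200 bp from an end and 83.7% from 200 bp on, so the mean did not climb steadily inward. The median position of a high run hardly differed, at 94% in the outer band and 94.3% in the next. In low runs the edge stood at 2.72% and the next band at 2.42%, and the deepest positions, 200 bp or more from an end, at 3.37%. Ends of a run are set by where measured positions stop, not by a known boundary in the DNA. The MspI digestion decides which positions are measured, and its part in the lower edge was not tested.

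Runs that lay next to each other mostly fell in the same level class. There were 31 pairs of neighbouring dense runs at most 1000 bp apart. Both were low in 18 pairs and both intermediate in 9, and the median difference within a pair was 1.92 points. The pairs of intermediate runs differed by 1.45 to 18.4 points. Low runs made up 75.1% of all dense runs, so many pairs would be low wherever they lay. Runs that were not neighbours were not compared. The sharpest contrast was on chromosome 19 (19q13.32), where the run from 46387919 to 46388484 averaged 49.7% and the run from 46388831 to 46389051, 346 bp further on, averaged 0.895%. On chromosome 5 (5q31.2) the run from 139088667 to 139089550 averaged 29.7% and the run from 139090446 to 139091208 averaged 1.23%.

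Spread over monkeys followed the level. The SD of a run over monkeys had a median of 0.813 points and was below 1 point in 579 of the 953 runs (60.8%). By class, the median SD was 0.711 points in low, 4.66 in intermediate and 2.38 in high runs. The same medians in runs of 10 to 49 positions were 0.853, 5.28 and 3.12, and in runs of 3 to 9 positions 2.38, 6.65 and 5.82. Averages over fewer positions vary more, so these figures describe the runs and do not separate biological from sampling spread. An SD of 5 points or more was reached by 96 dense runs (10.1%), of which 84 were intermediate, 7 low and 5 high. The share was 26.2% in runs of 10 to 49 positions and 56.1% in runs of 3 to 9. In runs of 45 to 49 positions alone it was 9.49%. In 73 of the 96 the lowest or the highest monkey was left 3 or right 9. Without these 2 libraries 57 runs reached that SD.

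**Figure D3:**
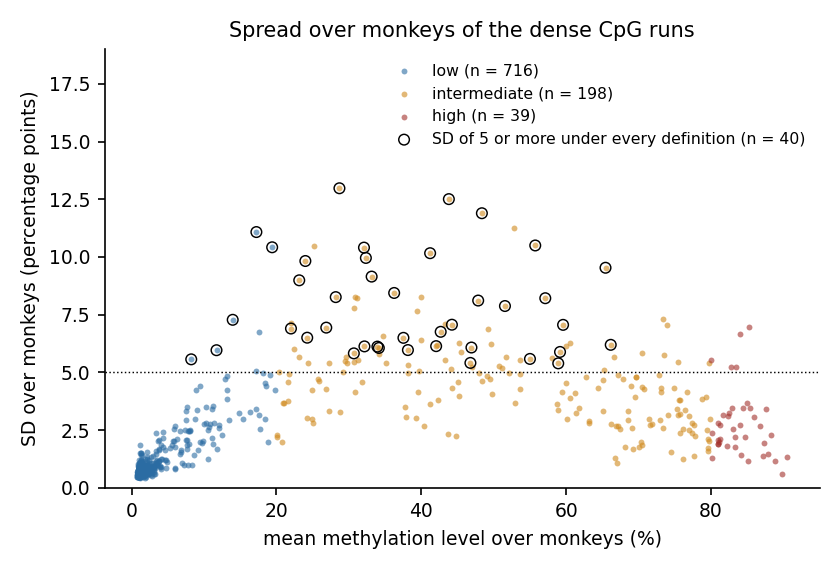
SD over monkeys (percentage points) against mean methylation level (%) for the 953 dense runs, coloured by level class. The SD is small at both ends of the scale and larger between them; circles mark the 40 runs with an SD of 5 points or more under 4 definitions of the run level, and the dotted line is at 5 points.

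The 8 runs with the largest SD show how incomplete libraries entered. The largest, 13 points, belonged to 67 positions on chromosome 9 from 140917458 to 140917863 (9q34.3), where left 3 stood at 4.12% from 8 positions and right 9 at 66.9% from 17 positions. When values were required at 50% or more of the positions, its SD was 5.61. On chromosome 1 from 23049441 to 23049995 (1p36.12), left 3 stood at 3.33% from 6 positions, the median monkey at 46.2% and the highest at 56.6%, and the SD was 12.5 points, or 5.59 under the same requirement. On chromosome 19 from 55997777 to 55998157 (19q13.42) the highest value, 82.1%, was that of left 4 from 7 positions. On chromosome 5 from 53814496 to 53814837 (5q11.2), where the first 28 positions averaged 18.1% and the last 27 averaged 77.5%, left 4 stood at 84.2% from 28 positions. There the SD was 11.2 points for the plain mean and 4.88 when each value was centred on the mean of its position.

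A smaller set varied widely under 4 measures of the level. The SD was 5 points or more in 40 runs (4.2%) under each of 4 measures: the plain mean, centred values, the requirement of 50% of the positions, and the omission of left 3 and right 9. Of the 40, 35 were intermediate, 5 low and 0 high, and 12 lay on chromosome 19. The corresponding share of sparser runs is not given. Incomplete libraries still entered some of them, and the runs of 9q34.3, 1p36.12 and 19q13.42 described above were among the 40. Left 4, which lacked 19% of its dense-run values, was not omitted under any measure and was often the extreme monkey. In the run on chromosome 1 from 10698759 to 10699552 (1p36.22), left 4 stood at 54.9%. The next highest, without left 3 and right 9, was 40.7%. In the run of 7q32.1 the highest value, 49.2% in right 4, came from 25 of 85 positions. These runs were singled out after their values were seen, by the smallest of their 4 SDs. The first, 52 positions on chromosome 20 from 19955883 to 19956342 (20p11.23), had SDs from 10.3 to 10.4 points. The ranges of the next runs leave out left 3 and right 9, whose values are given apart. Over the 21 other libraries the run of 20p11.23 ran from 3.98% in right 12 over a median of 17.4% to 40.2% in left 1, and 4 monkeys at 34.9% or more were set off from the other 17 at 27.2% or less. Left 3 stood at 8.58% and right 9 at 8.75%. The second, 94 positions on chromosome 19 from 519004 to 519337 (19p13.3), ran from 7.84% in left 2 over 25.3% to 41.7% in right 1. There left 3 was lower still, at 6.92% from 80 positions. A further run in the same band, 123 positions from 2290051 to 2290569, ran from 19.1% in left 6 over 34.5% to 51.1% in left 4, with right 9 below it at 10.7% from 38 positions. It had a variable neighbour from 2291205 to 2291518, which averaged 23.1% with an SD of 8.99 points over all 23 monkeys, or 7.95 without left 3 and right 9. The run of 94 positions on chromosome 8 from 1496759 to 1497493 (8p23.3) was more methylated, from 49.3% in right 11 over 68% to 80.7% in left 11, with left 3 above it at 83.8% from 32 positions. Hemispheres overlapped in the run of 20p11.23, whose right monkeys stood between 3.98% and 37.2% and left monkeys between 7.65% and 40.2%.

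**Figure D4:**
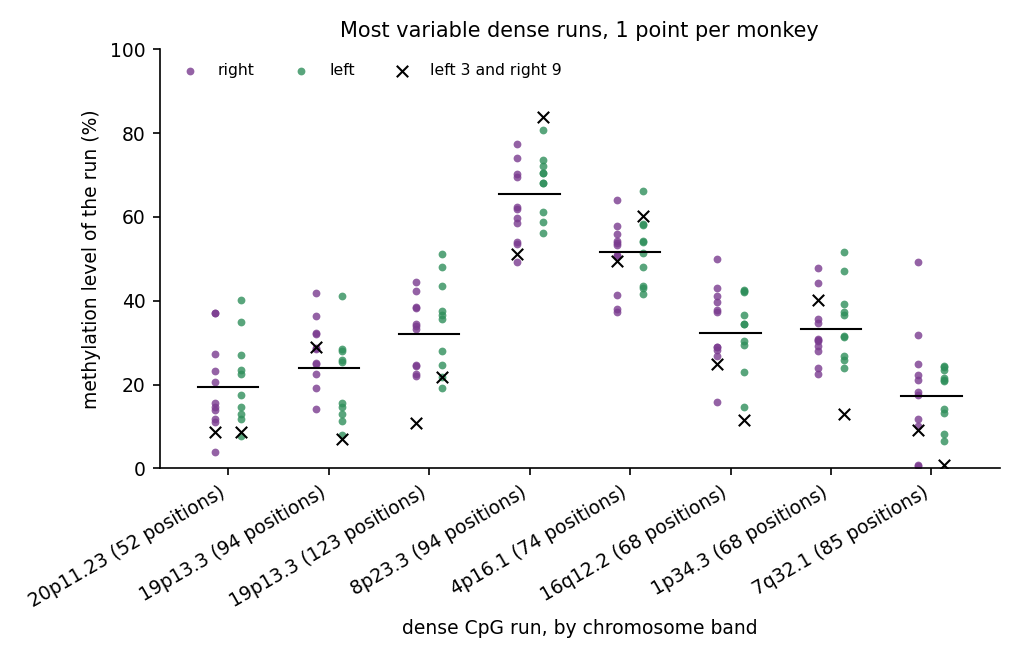
Methylation level (%) of the 8 dense runs whose smallest SD under 4 definitions was largest, with 1 point per monkey, right in purple, left in green, and a line at the mean. Crosses mark left 3 and right 9; in the run of 20p11.23 the other monkeys spread from 3.98% to 40.2%.

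Some intermediate runs hardly varied in their mean. The steadiest, 52 positions on chromosome 19 from 18092618 to 18092866 (19p13.11), stood between 64.9% and 68.7% in all 23 monkeys with an SD of 1.07 points. Of its positions, only 3.85% were themselves between 20% and 80%, while 26.9% were below 20% and 69.2% above 80%. Its mean was therefore mostly an average of low and high positions. Next, 104 positions on chromosome 1 from 120166043 to 120166584 (1p12) stood between 73.7% and 78.2% with an SD of 1.24. There 32.7% of the positions were between 20% and 80%, 6.73% were below 20% and 60.6% above 80%.

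In the low runs, monkeys differed by a shift that most runs shared. The mean over the 716 low runs was 2.51% ± 0.598 (SD, n = 23). Right 9 stood at 3.88%, right 10 and left 7 at 3.58%, left 9 at 3.49%, right 7 at 3.01% and right 8 at 2.9%, while the other 17 libraries lay between 1.64% and 2.5%. In the labels these 6 libraries have the sample numbers 18, 19, 13, 17, 14 and 15, and no label says what the numbering stands for. Left 7 was above the median monkey in 97.3% of the low runs. The same 6 libraries were the highest in runs of 10 to 49 positions with a level under 5%, at 1.94% to 2.99% against 1.02% to 1.53% in the others. After the mean of each monkey over the low runs was subtracted, the median SD of a low run was 0.375 points, against 0.711 before. Incomplete bisulfite conversion, sequencing error and methylation itself cannot be told apart here. Of the values in low runs, 48.4% were given as 0, from 13.3% in right 10 to 79.7% in left 3. Fractions were deposited to 2 decimals, so a 0 can also stand for a small fraction rounded down. Right 9 combined the highest mean with 76.9% of values at 0.

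In intermediate and high runs the monkey means were closer in proportion. The mean over intermediate runs was 51.7% ± 1.12, from 49.3% in right 9 to 53.3% in left 7. The mean over high runs was 84% ± 0.969 (SD, n = 23), and left 3 stood alone at 87.7%. With values centred on the mean of each position, left 3 was at 84.9% and the SD over monkeys was 0.502.

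**Figure D5:**
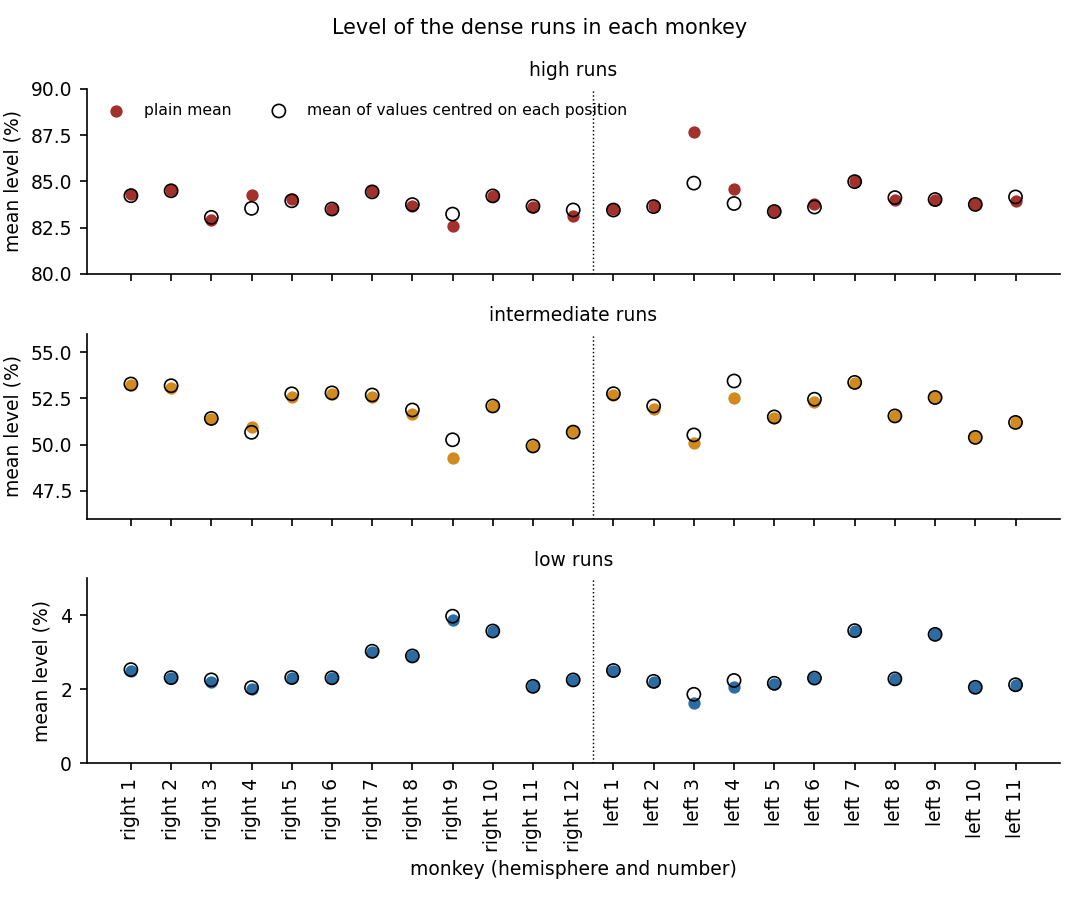
Mean level (%) over the high, intermediate and low dense runs in each monkey, right monkeys left of the dotted line and left monkeys to its right. Filled points are plain means and open circles means of values centred on each position; in low runs right 9, right 10, left 7 and left 9 stand highest, and in high runs left 3 is at 87.7% by the plain mean and 84.9% when centred. The axes do not start at 0 for high and intermediate runs.

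The series was designed around anxious temperament as a continuous trait, adjusted for age. The dense runs as a whole did not follow the score detectably. Their mean level per monkey had a correlation with the score of r = 0.0709 (permutation p = 0.748) and rho = 0.116 (permutation p = 0.597), with adjusted p = 0.906 for both over a family of 4 relations. Leaving out right 4 and left 11, which had the lowest and the highest score, gave an r of 0.0635. It was 0.171 within the 12 monkeys whose identifiers start with r and -0.0436 within the 11 whose identifiers start with B, a difference in naming whose meaning the labels do not give. With age, r was 0.0914 (permutation p = 0.677) and rho 0.0262 (permutation p = 0.906), both with adjusted p = 0.906. Without left 1 and right 2, r with age was 0.0302, and within the monkeys of the r series it was -0.339, against 0.419 within the B series. Right monkeys averaged 16.1% ± 0.453 (SD, n = 12) and left monkeys 16% ± 0.611 (SD, n = 11), a difference of 0.11 points (permutation p = 0.627).

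Run by run, no dense run was called for the score. Of the 953, 945 had values in at least 20 monkeys and were tested with limma beside all other runs of 3 or more positions, 27598 in all, on any chromosome. At an adjusted p under 0.05 there were 0 dense runs, where 0% of all runs were called. At an unadjusted p under 0.05 there were 2, where 2.62% of all runs passed. The slope was positive in 658 of 945 dense runs (69.6%, against 53.3% of all runs). It was positive in 409 of 945 once the mean level of each monkey over the low runs was added to the model. Low runs made up 708 of the 945, so this covariate removes the shift they share by construction. Counts with the covariate, here and for age, hemisphere and the interaction below, do not test that shift. Their shares over all runs are not given. The run with the smallest p, 60 positions on chromosome 5 from 2748570 to 2749087 (5p15.33), had levels from 13.2% over a median of 22% to 26.8%. The fitted slope on the score was 2.52 ± 0.999 points per unit (SE, n = 23; limma unadjusted p = 0.0194, adjusted p = 1), and 1.36 with centred values. The second, 77 positions on chromosome 2 from 45169600 to 45169973 (2p21), ran from 2.27% to 7.56% and had a slope of 0.741 ± 0.327 (SE, n = 23; limma unadjusted p = 0.0337). The other 3 leading runs had slopes of 1.92 on chromosome 12 from 111856064 to 111856625, -0.606 on chromosome 12 from 113905955 to 113906291 (-0.361 without right 4), and 2.27 on chromosome 19 from 19625429 to 19626468. Among single positions, 24080 inside dense runs varied enough to be tested with limma. None was called at an adjusted p under 0.05, where 0% of the 192151 positions tested were called, and 529 had an unadjusted p under 0.05, a threshold that 3.12% of all tested positions passed.

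Age gave no call among the dense runs, and the slope of its leading run rested on 1 monkey. At an adjusted p under 0.05 limma called 0 of 945, against 0.0399% of all runs (11 runs, and 0 without left 1). Unadjusted, 14 dense runs had p under 0.05, against 3.86%. The age slope was positive in 232 of 945 dense runs (24.6%, against 50.9% of all runs) and in 273 with the mean level over the low runs in the model. The smallest p belonged to 90 positions on chromosome 2 from 208632936 to 208633372 (2q33.3), which ran from 3.49% over a median of 5.39% to 15.3% in left 1, the oldest monkey, with the next highest at 9.76%. Per year of age its level differed by 7.64 ± 1.84 points (SE, n = 23; adjusted p = 0.273 by limma), and by 0.667 points once left 1 was omitted. The next was 76 positions on chromosome 19 from 15568111 to 15568562 (19p13.12), where left 1 again stood highest, at 21.9%, next to 21.5%, and the median was 6.86%. The slope there, 15.5 ± 4.24 points per year (SE, n = 23; adjusted p = 0.483 by limma), was 13.4 once left 1 was omitted. The variable run of 20p11.23 followed, with a slope of 26.2 ± 8.23 (SE, n = 23; limma adjusted p = 0.798) and left 1 at 40.2%. Without left 1 its slope was 24.3.

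For hemisphere, score and age were kept as covariates. No dense run was called by limma at an adjusted p under 0.05, where 0% of all runs were called, and 9 of 945 had an unadjusted p under 0.05, against 2.65% of all runs. The difference was positive in 711 dense runs (75.2%, against 57% of all runs), and in 451 with the mean level over the low runs in the model. The smallest p was that of 67 positions on chromosome 17 from 27043936 to 27044483 (17q11.2). Right monkeys stood between 16.5% and 24.7% with a median of 20.9%, and left monkeys between 5.48% and 20.2% with a median of 18.7%, so the groups overlapped. The adjusted difference was 4.93 ± 1.69 points (SE; limma adjusted p = 0.992), and 3.78 without left 3 and right 9. On chromosome 20, 74 positions from 57415044 to 57415578 (20q13.32) averaged 40.2% ± 6.86 in right (SD, n = 12) and 32% ± 8.17 in left monkeys (SD, n = 11). The lowest left value there, 9.79%, was that of left 3 from 28 positions. The adjusted difference was 8.5 ± 3.18 points (SE; limma adjusted p = 0.992), and 6.87 without left 3 and right 9. Next came 55 positions on chromosome 7 from 150093724 to 150094366 (7q36.1), averaged 77.3% ± 1.14 in right (SD, n = 12) and 74.1% ± 3.89 in left monkeys (SD, n = 11).

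The slope on the score was compared between hemispheres by an interaction term. No dense run was called by limma at an adjusted p under 0.05, where 0% of all runs were called, and 5 of 945 had an unadjusted p under 0.05, against 2.89% of all runs. The term was positive in 731 dense runs (77.4%, against 65.2% of all runs), and in 470 with the mean level over the low runs in the model. The smallest p was that of 92 positions on chromosome 11 from 77907224 to 77907699 (11q14.1), where the slope in right monkeys differed from that in left monkeys by -7.26 ± 2.91 points per score unit (SE; limma adjusted p = 1), or by -3.68 without left 11.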

How the data were processed

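Each value in the table is the methylated fraction of a position, deposited by the authors to 2 decimals and without coverage, for 444312 positions in 23 libraries. Bismark 0.11.1 and hg19 are named in the submitters' processing notes, while coverage filters and the handling of strands were not stated. Fractions were multiplied by 100. The members and the lists of named runs were chosen with earlier results of these data known. The depth is unknown, so no interval was computed.

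Linear models of run level used limma 3.58.1 (R 4.3.3) with trended empirical Bayes variances (Benjamini-Hochberg over 27598 runs of 3 or more positions with values in at least 20 monkeys). No filter on the range was used, since it would remove most low runs. Missing values were not imputed. Runs were fitted by pattern of missing values, checked against limma itself and tested on simulated data. Positions needed a range of at least 10 points. Permutation tests used 100000 resamples (Python 3.11.15, scipy 1.17.1). Bands come from circlize 0.4.16. Named were the 5 runs with the most positions, the 5 longest, the 12 most methylated, the 8 with the largest SD and those with the smallest p (5 for score, 3 for age, 3 for hemisphere, 2 for the interaction). A selection of these is described. Alternatives were other run definitions, scales, filters, covariates and omitted libraries. P-values measure the spread between single libraries of different monkeys.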

Additional observations from a re-analysis of the deposited data

How the results depend on the processing

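The run definition set the counts. With at least 30 positions there were 3034 runs, 731 of them at 20% or more. With at least 100 positions there were 107 and 33, and with strand pairs counted once and at least 50 CpGs 227 and 79. Built from positions with a value in every monkey alone, there were 180 runs and 9 at 20% or more (5%, against 24.9%). That definition tests fewer positions, and the cause of the lower share was not tested. With a level cut of 50% in place of 20% there were 141 exceptions. The difference between dense runs and runs of 10 to 49 positions was -15.3 points in the main setting and -11.1 at complete positions. It was -10.4 with each position weighted equally and -19 with medians over positions. Without left 3 and right 9, 57 runs had an SD of 5 points or more, against 96, and omitting single monkeys gave 75 (right 9) to 103.

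The correlation of mean level and score was -0.00111 with medians over positions, -0.0436 within the B series, and between -0.0226 (without right 4) and 0.155 (without left 11) on omitting single monkeys. That with age was -0.023 at complete positions and -0.339 within the r series. The difference of right minus left was -0.107 points with medians over positions. No alternative, including the omission of each monkey in turn, called a dense run for score, age, hemisphere or their interaction. The smallest adjusted p was 0.0532, for age without right 3. Dense runs with an unadjusted p under 0.05 numbered 2 to 9 for score, 9 to 20 for age, 6 to 15 for hemisphere and 1 to 9 for the interaction on omitting single monkeys, and 12, 25, 12 and 10 in that order without left 3 and right 9. With the level of the low runs as a covariate, 29 had an unadjusted p under 0.05 for age. The shares over all runs in these refits are not given, so the counts cannot be read against a background. In the main fit those shares were 2.62% for score, 3.86% for age, 2.65% for hemisphere and 2.89% for the interaction. Over all runs, calls for age numbered 0 to 22. The 13 named slopes, none of them called, kept their sign in 414 refits, although the size of 3 moved by over 1.5 times on omitting 1 monkey: 0.667 against 7.64 for age in 2q33.3, -3.68 against -7.26 for the interaction in 11q14.1 and -0.361 against -0.606 for the score in 12q24.13. The added covariate of low-run level, the complete-position SD and the runs singled out by 4 SDs were chosen after seeing the data. No paired analysis was possible because right and left samples came from different monkeys, numbered here by accession order. Depth is unknown for every level. The least complete libraries were left 3, left 4 and right 9.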
